A study of Mus musculus with 12 samples.

Results

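The genes described here are Glul, Oat, Slc1a2, Rhbg, Axin2, Lgr5 and Tbx3, which hepatocytes around the central vein of the liver lobule express under Wnt signalling. All probes whose accession in the array's annotation maps to these symbols were taken, which gave 10 probes of 7 genes, of 39429 probes and 20886 named genes on the array. Glul, Oat, Rhbg, Lgr5 and Tbx3 had 1 probe each, Axin2 had 2 and Slc1a2 had 3. All 10 probes were well above the local background on all 12 arrays.

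Total RNA of whole liver was measured in 12 female C57BL/6N mice after 6 months on a diet, 3 mice in each of 4 groups, with 1 one-colour Agilent array per mouse. The mice were bought at 6 weeks of age and housed in cages that were randomly assigned to the groups, on a normal formula diet (NFD). In the Ctrl group the carbohydrate of the NFD came from corn starch and sucrose, and the RS group had this same diet with resveratrol, a plant polyphenol, added. In the DJ group Dongjin rice took the place of the starch and sucrose, and in the DJ526 group it was replaced by DJ526, a Dongjin rice that carries a peanut stilbene synthase gene and makes resveratrol in the grain. DJ526 therefore differs from DJ in the transferred gene as well as in resveratrol, and the resveratrol content of the diets was not used here.

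In the liver lobule, blood runs from the portal vein to the central vein, and hepatocytes along this path express different genes, a pattern called zonation. Endothelial cells of the central vein release Wnt ligands and R-spondin, which keep beta-catenin in the nearest hepatocytes from being degraded by the destruction complex. Beta-catenin then enters the nucleus, binds factors of the TCF/LEF family and switches on pericentral genes. Glul, Oat, Slc1a2 and Rhbg are used in nitrogen handling by these cells, where ammonia that escaped the periportal urea cycle is bound into glutamine. Axin2 and Lgr5 are part of the Wnt pathway itself, and Tbx3 is a transcription factor that marks the same cells.

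The string CTTTGA, which is the core of the DNA site that TCF/LEF factors bind, was searched on both strands (as CTTTGA or TCAAAG) in the 250 bases before a transcript start of each gene. RefSeq windows on the build GRCm38.p6 were at hand for Glul, Oat, Slc1a2 and Axin2 and not for Rhbg, Lgr5 and Tbx3. The string was present in 13.8% of all 32851 windows. Of the 4 windows of these genes only that of Slc1a2 held it, with 2 matches that start 206 and 77 bases before that transcript start, and the window is shown for that reason with the matches in capitals. It lies on the plus strand at chr2:102706188-102706437. For Slc1a2, which spans chr2:102658239-102790784, and for Axin2 the transcript start of the window lies inside the bounds of the gene, so that the search did not cover the bases before their outermost start.
Slc1a2: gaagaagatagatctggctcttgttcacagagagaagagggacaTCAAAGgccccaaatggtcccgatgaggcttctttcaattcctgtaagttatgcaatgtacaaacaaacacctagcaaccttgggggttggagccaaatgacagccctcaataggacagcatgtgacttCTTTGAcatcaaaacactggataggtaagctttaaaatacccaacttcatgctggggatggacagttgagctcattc
A match is a description of the letters in this window and not evidence of binding. Of 7 other Wnt target genes with a window, 3 held the string (Dkk1, Lef1 and Sp5).

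Across the arrays, 73.0% to 80.8% of spots were well above background and none was saturated. The 12 arrays lay on 3 slides. The first slide had all Ctrl mice with DJ replicate 1, and the third all DJ526 mice with RS replicate 3. The remaining RS and DJ mice, 2 of each, shared slide 2. Slide and group were therefore nearly the same split. RS replicate 3 on slide 3 and DJ replicate 1 on slide 1 are the arrays that connect the groups across slides. A sample table in the study's supplement lists the RS and DJ arrays the other way round from the array labels. The labels were followed, and only comparisons with RS or DJ are touched by this, rice against starch and sucrose among them.

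A level below is log2 of the probe's signal over the 75th percentile of the signals of its array, so that a level of 0 is a signal at that percentile. It is not comparable between genes, since probes differ in brightness. A difference of 1 on this scale is a doubling. A gene with several probes is read by its brightest one.

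None of the 7 genes differed between diets at an adjusted p under 0.05 in limma, in any of 8 comparisons or in the F test across the 4 diets. No member probe passed in RS against Ctrl, where 0.0% of all probes did, in DJ against Ctrl (0.0% of all) or in DJ526 against Ctrl (0.00507% of all). The same held for DJ526 against DJ (0.0101% of all), DJ526 against RS (0.00761%), DJ against RS (0.0%) and rice against starch and sucrose (0.0%). It also held for the difference between the effect of resveratrol on rice and on starch (0.0%) and for the F test (0.00507%). At an unadjusted p under 0.05 in limma, 2 of the 10 probes passed in DJ526 against Ctrl (10.8% of all probes did), those of Rhbg and the dimmer probe of Axin2. The probe of Rhbg alone passed in DJ526 against DJ (9.81% of all), DJ526 against RS (5.5%), the effect of resveratrol on rice minus that on starch (6.09%) and the F test (7.7%). For RS and Ctrl (6.0% of all), DJ against Ctrl (5.22%), DJ against RS (3.52%) and rice against starch and sucrose (4.57%) it was 0 of 10. These counts moved when slide was added as a block, while no adjusted p passed. Glul, Oat and Rhbg then had an unadjusted p under 0.05 in RS against Ctrl (10.2% of all probes), Oat and Rhbg in DJ526 against Ctrl (11.7%) and against DJ (7.49%), and Glul and Oat in DJ against RS (4.87%). Oat alone had one for rice against starch and sucrose (11.1%) and in the F test (8.64%), and no member probe did in DJ against Ctrl (9.78%), DJ526 against RS (8.0%) or the effect of resveratrol on rice minus that on starch (6.54%). The methods' t-test on the same values, run for the comparisons of 2 groups and for rice, also called 0 of the 10 probes after adjustment. With 3 mice against 3, an exact permutation test of 1 gene cannot go below p = 0.1. In simulated data with the spread of these arrays, limma recovered 37% of changes of 1 log2 unit in DJ526 against Ctrl and 77.5% of changes of 2. The simulation had no slide effect and changed 200 probes drawn from all. These shares are therefore not the recovery for the 7 genes, which was not simulated. In bulk RNA, fewer cells of a type and less RNA per cell cannot be told apart.

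**Figure D1:**
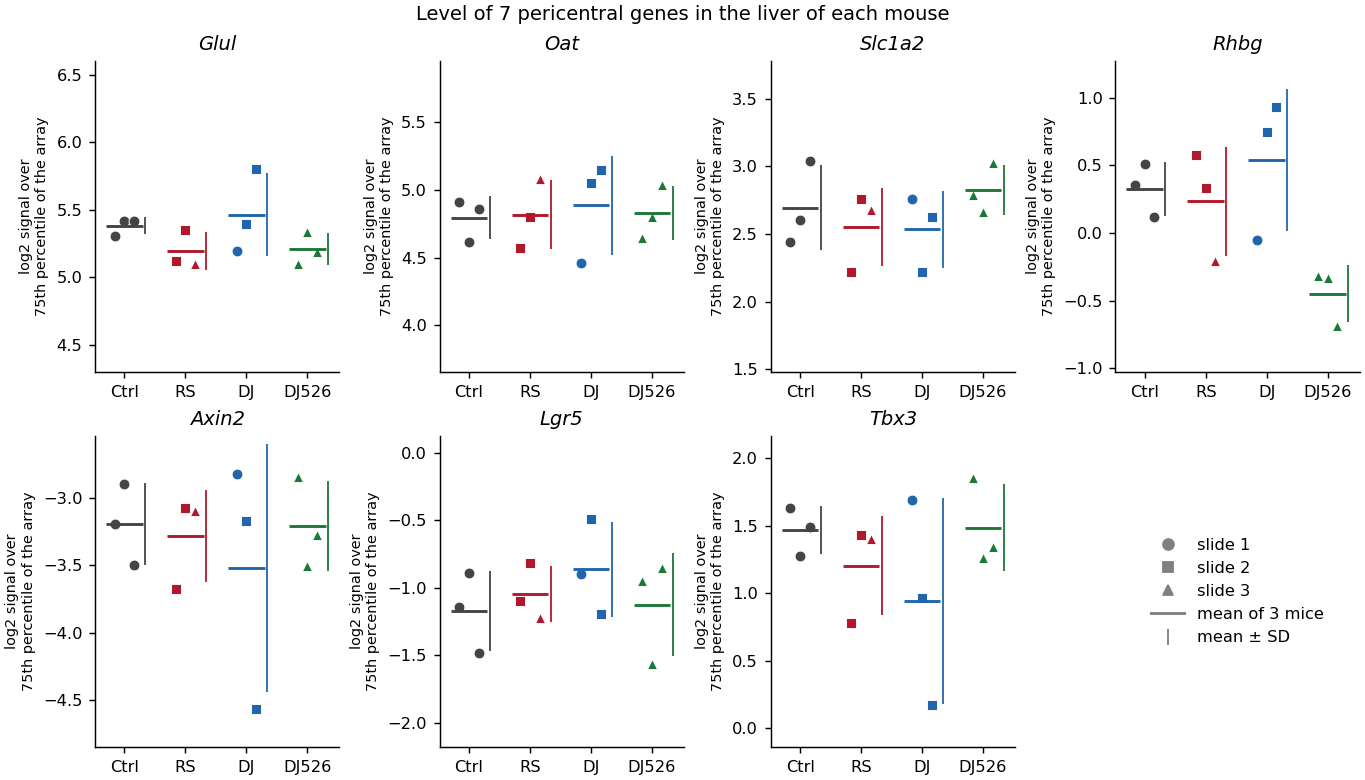
Levels of the 7 genes in each mouse (vertical axis, log2 signal over the 75th percentile of the array, brightest probe) by diet group (horizontal axis). Each point is 1 mouse, its shape gives the slide, horizontal bars are means of 3 mice and vertical lines show the mean ± SD, and each panel spans the same range of log2 units. The 3 DJ526 mice lie below the 9 other mice in Rhbg, and the groups overlap in the other 6 genes.

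Glul encodes glutamine synthetase, the enzyme that joins ammonia to glutamate and that is found in the hepatocytes next to the central vein. Its level was 5.31, 5.41 and 5.42 in the Ctrl mice and 5.12, 5.35 and 5.10 in the RS mice. It was 5.20, 5.39 and 5.80 in the DJ mice and 5.10, 5.34 and 5.19 in the DJ526 mice. The Ctrl mice lay closest together (SD 0.06), the highest value of all was that of DJ replicate 3, and every group overlapped every other. DJ exceeded RS by 0.27 (standard error 0.14, 95% interval -0.03 to 0.57), and DJ526 differed from DJ by -0.25 (95% interval -0.55 to 0.04, adjusted p = 0.565 from limma). RS was lower than Ctrl by 0.19 in the mean and DJ526 by 0.17, and the 95% intervals were -0.49 to 0.11 and -0.47 to 0.13. With the slide block, the differences from Ctrl were -0.54 in RS and -0.44 in DJ526 (adjusted p = 0.427 and 0.572 from limma). The means ran from RS over DJ526 and Ctrl to DJ. For all neighbours in this order, the 95% interval of the difference ran from a negative to a positive value.

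Oat encodes ornithine aminotransferase, a mitochondrial enzyme that turns ornithine into a precursor of glutamate and proline. Its level was 4.91, 4.62 and 4.86 in Ctrl and 4.57, 4.80 and 5.08 in RS. The DJ mice had 4.46, 5.05 and 5.15, and the DJ526 mice 4.64, 4.80 and 5.04. The 4 means lay within 4.80 (Ctrl) and 4.89 (DJ), a smaller distance than the SD of any group (0.16 to 0.37). The 95% intervals of the differences from Ctrl were -0.38 to 0.44 (DJ526), -0.32 to 0.50 (DJ) and -0.39 to 0.43 (RS). DJ replicates 1 and 3 were the lowest and the highest of all 12 mice. When slide was added as a block, the differences from Ctrl were -0.996, -0.33 and -0.74 in the same order, and the smallest adjusted p of these from limma was 0.250, so that the direction of the Oat values was not settled.

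Slc1a2 encodes the glutamate transporter GLT-1, which brings glutamate into pericentral hepatocytes. Its brightest probe gave 2.44, 2.60 and 3.04 in Ctrl and 2.22, 2.76 and 2.68 in RS. It gave 2.76, 2.22 and 2.63 in DJ and 2.79, 2.66 and 3.03 in DJ526. DJ526 had the highest mean (2.83 ± 0.18, SD, n = 3) and DJ the lowest (2.53 ± 0.28, SD, n = 3), and the groups overlapped. The difference of 0.29 between these diets had a 95% interval of -0.14 to 0.72. A further probe, with levels between -2.39 and -1.48, followed the brightest one over the 12 arrays (r = 0.75), and the dimmest, between -4.31 and -3.41, did not (r = 0.09). These 2 probes carry another RefSeq transcript of the gene than the brightest one. In DJ against Ctrl the dimmest probe pointed the other way (0.42, 95% interval -0.07 to 0.91) from the brightest (-0.16, -0.59 to 0.27), and neither passed the test.

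Rhbg encodes an ammonium transporter of the Rh glycoprotein family in the hepatocyte membrane. Its level was 0.36, 0.51 and 0.11 in the Ctrl mice and 0.58, 0.33 and -0.21 in the RS mice. It was -0.05, 0.75 and 0.93 in the DJ mice, and -0.32, -0.33 and -0.69 in the DJ526 mice. All 3 DJ526 mice lay below all 9 other mice, which was so for 1.53% of all probes and for 1.73% of those well above background on all arrays. The gap was narrow, since the highest DJ526 value was -0.32 and the lowest of the others, RS replicate 3, was -0.21. The mean of DJ526 was -0.45 ± 0.21 (SD, n = 3), against 0.33 ± 0.20 in Ctrl, 0.23 ± 0.40 in RS and 0.54 ± 0.52 in DJ.

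In DJ526 the level of Rhbg was 0.584 times that in Ctrl (95% interval 0.394 to 0.865), a log2 difference of -0.78 with a standard error of 0.26 (adjusted p = 0.318 from limma). Against DJ the log2 difference was -0.99 (95% interval -1.56 to -0.42, adjusted p = 0.262 from limma), and against RS it was -0.68 (-1.25 to -0.12, adjusted p = 0.773 from limma). Rhbg was the 1 gene of the 7 in which the mice of the 2 groups did not overlap in these 3 comparisons, and such probes made up 20.6%, 18.4% and 11.1% of all probes. In the comparisons of RS and DJ with Ctrl and of DJ with RS, none of the 7 genes was without overlap (10.2%, 9.34% and 6.34% of all probes were). The exact permutation p of Rhbg was 0.1 in each of the 3 comparisons of DJ526, the smallest that 3 mice against 3 can give. RS and DJ overlapped Ctrl, with differences of -0.09 (95% interval -0.66 to 0.47) and 0.21 (-0.35 to 0.78). Resveratrol on rice minus resveratrol on starch was -0.90 (95% interval -1.70 to -0.10, adjusted p = 0.782 from limma).

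The Rhbg values moved with the slide as well as with the diet. The mean of the 4 arrays was 0.23 on slide 1, 0.65 on slide 2 and -0.39 on slide 3. On slide 3, the DJ526 mice were lower than RS replicate 3 by 0.24 in the mean, where the pooled difference from RS was -0.68. On slide 2, DJ was higher than RS by 0.38 (2 mice against 2), and on slide 1 the single DJ mouse was 0.38 below the mean of the Ctrl mice. With the slide as a block in limma, RS differed from Ctrl by -0.76, the difference of DJ526 was -1.01 from Ctrl, -0.63 from DJ and -0.24 from RS, and the effect of resveratrol on rice minus that on starch changed sign (0.14). The adjusted p of these 5 ran from 0.297 to 0.920. The 200 spots around the Rhbg spot had a median difference of 0.00 in DJ526 against Ctrl, 0.06 against DJ and 0.00 against RS. The part of the slide in the Rhbg values was not tested, because only RS replicate 3 gives a value of another diet on the slide of DJ526.

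**Figure D2:**
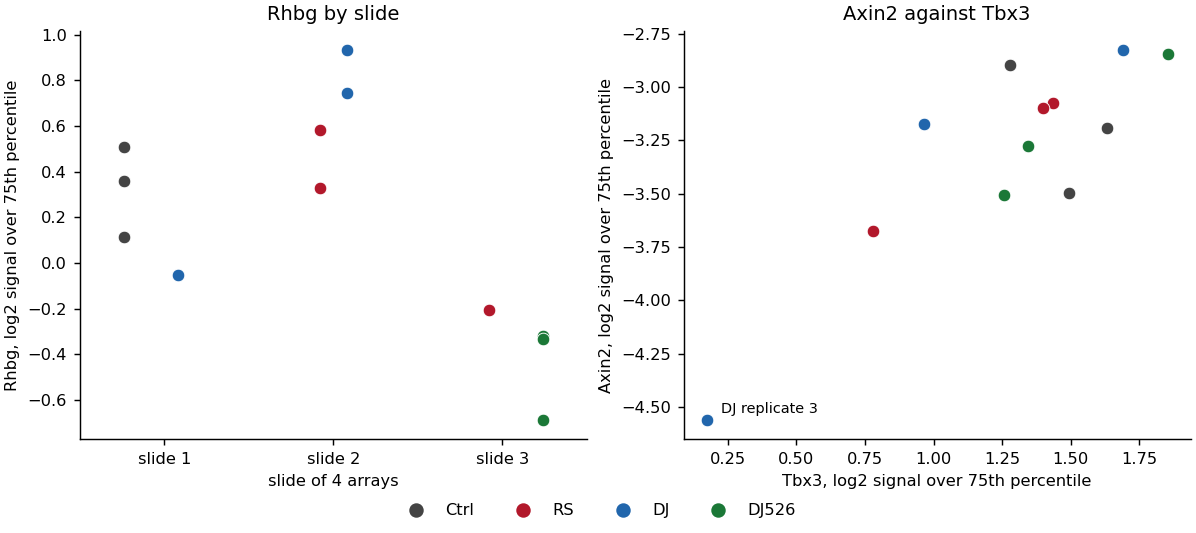
Left, the Rhbg level of each mouse (log2 signal over the 75th percentile of the array) by slide. RS replicate 3 (-0.21) lies next to the DJ526 mice (-0.69 to -0.32) on slide 3 and below the RS mice of slide 2 (0.33 and 0.58). Right, the Axin2 level against the Tbx3 level of the same 12 mice on the same scale, where DJ replicate 3 (Axin2 -4.56, Tbx3 0.17) lies apart from the other 11.

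Axin2 encodes a scaffold of the beta-catenin destruction complex, and is itself switched on by the pathway as a negative feedback. Its brighter probe gave -3.19, -2.90 and -3.50 in Ctrl and -3.67, -3.08 and -3.10 in RS. It gave -2.83, -3.17 and -4.56 in DJ and -2.84, -3.51 and -3.27 in DJ526. Apart from DJ replicate 3, all mice lay between -3.67 and -2.83, and every group overlapped every other. The difference from Ctrl was -0.09 for RS, -0.33 for DJ and -0.01 for DJ526, each with a 95% interval that reached beyond 0.5 log2 units on both sides. Without DJ replicate 3 the difference of DJ from Ctrl became 0.19. When slide was added as a block, RS, DJ and DJ526 lay above Ctrl by 0.86, 0.37 and 0.75, so that the direction of the Axin2 values was not settled either.

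The dimmer probe of Axin2 had levels of -6.11, -5.98 and -6.83 in Ctrl and -5.55, -5.74 and -5.27 in DJ526. It gave -6.06, -5.76 and -5.64 in RS and -5.54, -5.69 and -6.64 in DJ. DJ526 and Ctrl did not overlap, which was so for 20.6% of all probes. The difference was 0.79 (95% interval 0.075 to 1.5, adjusted p = 0.422 from limma), where the brighter probe gave -0.01. With the normexp background correction the difference of the dimmer probe was 0.10, and with the slide block 1.145. The lowest signals that counted as well above background lay between -7.31 and -6.73 on this scale, so that the dimmer probe was read close to the floor of the arrays. Over the 12 arrays the 2 probes had r = 0.64.

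Lgr5 encodes a receptor for R-spondins that keeps Wnt receptors at the cell surface. Its level was -1.14, -0.89 and -1.48 in Ctrl and -1.10, -0.82 and -1.22 in RS. The DJ mice had -0.90, -0.49 and -1.19, and the DJ526 mice -0.95, -1.56 and -0.86. All groups overlapped, and the means lay between -1.17 (Ctrl) and -0.86 (DJ). The difference of DJ from Ctrl was 0.31 (95% interval -0.20 to 0.82), and those of RS and DJ526 were 0.13 (-0.38 to 0.63) and 0.05 (-0.46 to 0.56).

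Tbx3 encodes a T-box transcription factor. Its level was 1.63, 1.28 and 1.49 in Ctrl and 0.78, 1.43 and 1.40 in RS. It was 1.69, 0.97 and 0.17 in DJ and 1.85, 1.26 and 1.35 in DJ526. The DJ mice spanned most of the range of all 12 (SD 0.76, against 0.18 in Ctrl), and the groups overlapped. DJ was lower than Ctrl by 0.53 in the mean (95% interval -1.24 to 0.19, adjusted p = 0.991 from limma), and without DJ replicate 3 by 0.14. DJ526 exceeded DJ by 0.54 (95% interval -0.17 to 1.26), and by 0.16 without DJ replicate 3. When slide was added as a block, the differences from Ctrl were 0.76 (RS), 0.22 (DJ) and 0.85 (DJ526, where it was 0.02 without the block).

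**Figure D3:**
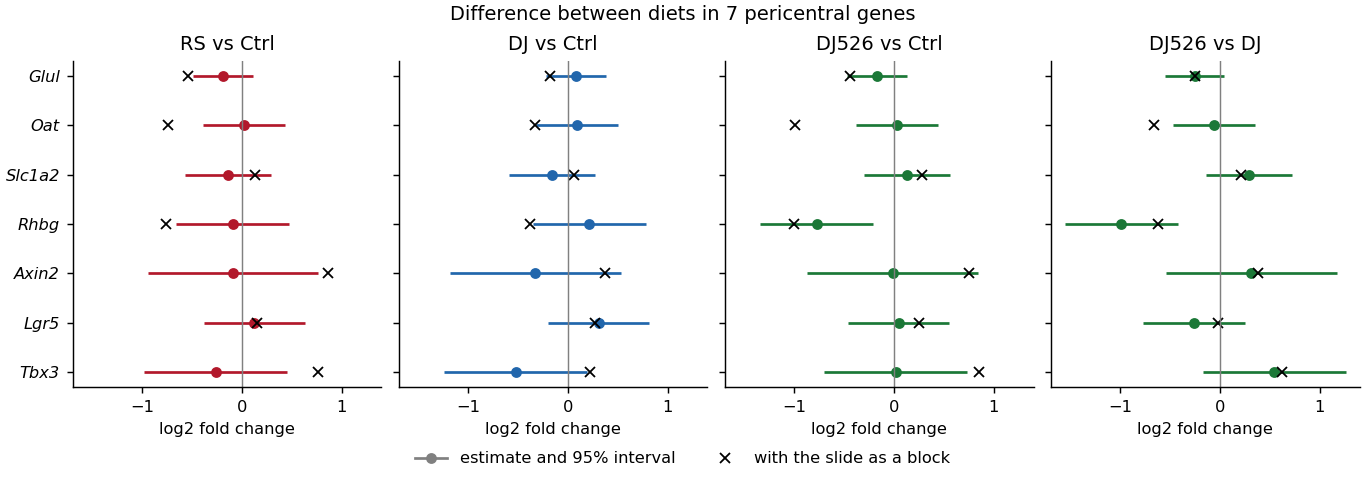
Log2 fold changes of the 7 genes (horizontal axis) in 4 comparisons, with points for the estimate, lines for the 95% interval from limma and crosses for the estimate with the slide as a block. The interval excludes 0 only for Rhbg in DJ526 against Ctrl and against DJ, where the adjusted p was 0.318 and 0.262 from limma, and the crosses lie on the other side of 0 from the points in several genes, Oat among them.

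Rice against starch and sucrose, as the mean of both rice groups minus that of both others, gave differences from -0.23 (Rhbg) to 0.12 (Lgr5), and every 95% interval included 0. DJ against RS gave -0.26 (Tbx3) to 0.31 (Rhbg), again with 0 in every interval. The rice comparison depends on which arrays are RS and which are DJ. With the 2 groups exchanged, 2 of the 10 member probes had an unadjusted p under 0.05 in limma for it (10.1% of all probes). None passed after adjustment. The median differences of the 7 genes from Ctrl were 0.02 (DJ526), 0.08 (DJ) and -0.09 (RS), where the medians of all probes were 0.02, -0.02 and 0.03. Of the 7 genes, 2 were higher and 5 lower in RS than in Ctrl, and 4 were higher and 3 lower in DJ and in DJ526. These 3 comparisons share the Ctrl mice. With the slide block, the medians were 0.25 (DJ526), 0.07 (DJ) and 0.13 (RS), where those of all probes were -0.12, -0.02 and -0.01, and 4 genes were higher and 3 lower in each. The intervals of single genes against Ctrl reached from -1.34 at the lowest (Rhbg in DJ526) to 0.84 at the highest (Axin2 in DJ526).

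The genes differed in how much mice of 1 diet varied. The residual SD within groups was 0.18 for Glul, 0.26 for Oat, 0.27 for Slc1a2, 0.32 for Lgr5, 0.36 for Rhbg, 0.46 for Tbx3 and 0.54 for Axin2, where the median over all probes well above background was 0.19. Glul was at the 47.0th percentile of these probes, while Tbx3 and Axin2 were at the 90.8th and the 94.0th. From the lowest to the highest mouse, the signal spanned 1.62-fold for Glul and 1.6-fold for Oat, and 3.33-fold for Axin2, 3.21-fold for Tbx3 and 3.08-fold for Rhbg.

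In Glul, Axin2 and Tbx3, a single mouse made up much of this spread. DJ replicate 3 was the highest of the 12 in Glul, Oat and Rhbg and the lowest in Axin2 and Tbx3, thus at an end of the range in 5 of 7 genes. Over all 27297 probes well above background on all arrays, it was at an end in 24.6%, which was the second highest share after RS replicate 3 (26.9%). RS replicate 3 was at an end in 0 of the 7 genes. Without DJ replicate 3 the differences of DJ from Ctrl were -0.09 for Glul, -0.04 for Oat and 0.02 for Rhbg, against 0.08, 0.09 and 0.21 with it. Without DJ replicate 1 they were 0.22, 0.30 and 0.51 in the same order, so that in Oat and Rhbg DJ replicate 1 moved the difference further.

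**Figure D4:**
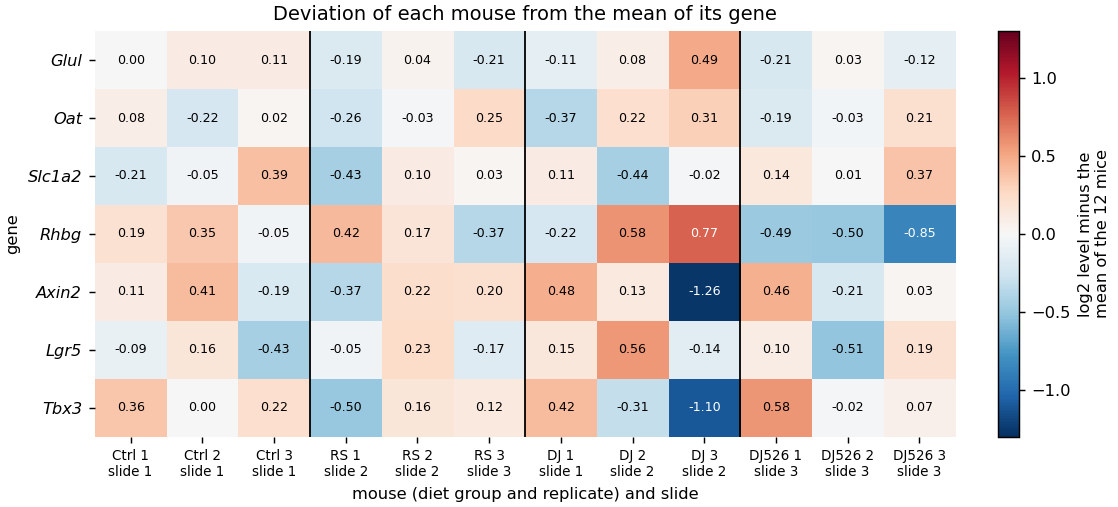
Deviation of each mouse (columns, by diet group and replicate with the slide) from the mean of the 12 mice for each gene (rows), in log2 units, with red above and blue below the mean. The column of DJ replicate 3 holds the largest deviation, in Axin2 (-1.26), and values of opposite sign in Rhbg (0.77) and Tbx3 (-1.10), and the 3 DJ526 columns are below the mean in Rhbg.

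Over the 12 mice, Axin2 and Tbx3 had the highest correlation among the 21 pairs of these genes. Pearson's r was 0.86 (permutation p = 0.00195, Benjamini-Hochberg adjusted over 21 pairs 0.0410), and Spearman's rho was 0.69 (permutation p = 0.0160, adjusted 0.168). An r as far from 0 with Axin2 was found in 0.231% of 15576 other genes. Without DJ replicate 3 r was 0.62, and without the 2 mice farthest from the median of Axin2 (DJ replicate 3 and RS replicate 1) it was 0.41. Leaving out the extremes of 1 gene narrows its range and can lower r by itself. These values therefore do not settle how far the relation rests on those mice. Deviations from the slide means gave r = 0.83, and each slide alone holds too few arrays for a value. Rhbg and Slc1a2 had r = -0.66 (permutation p = 0.0211, adjusted 0.112) and rho = -0.71 (permutation p = 0.0117, adjusted 0.168), and r was -0.66 also without the 2 mice farthest from the median of Rhbg. Glul and Axin2 had r = -0.68 (permutation p = 0.0336, adjusted 0.118) and rho = -0.32 (permutation p = 0.310, adjusted 0.667). Without DJ replicate 3 this r was -0.09, and without the 2 mice farthest from the median of Glul it was 0.09, so that little of it was left without DJ replicate 3. Of the 21 values of r, 11 were below 0.

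For each gene, the 3 genes with the most similar pattern over the 12 arrays were taken from 15576 others, as a description. The highest r with Glul was that of Pttg1 (0.90), followed by Morc4 and Snap29 (both 0.88). Those with Oat were Fgfr2 (0.95), C1rl (0.89) and Eepd1 (0.87), and those with Slc1a2 were Marco (0.90), Igsf8 (0.88) and Ephb6 (0.87). Rhbg was most like Tarbp2 (0.96), Pcbd2 (0.94) and Coq4 (0.93). Axin2 was most like Stk40, Gpatch2 (both 0.92) and Elk4 (0.91), and Tbx3 like Nup153, Tent4b (both 0.92) and Ppm1l (0.91). For Lgr5 they were E230025N22Rik (0.89), Gemin5 and Caml (both 0.87). None of these 21 was itself one of the 7 genes or of the lists below other than Marco, a macrophage receptor on the Kupffer cell list.

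Genes upstream of the 7 were read from lists of the pathway. None of 19 genes for Wnt ligands, R-spondins, their receptors and Wnt secretion passed at an adjusted p under 0.05 in limma in any comparison, and 2 of 19 had an unadjusted p under 0.05 in the F test (7.7% of all probes). The smallest was that of Wnt11, a ligand, with levels of -4.05 ± 0.17 (Ctrl), -3.24 ± 0.29 (RS), -3.48 ± 0.07 (DJ) and -3.21 ± 0.06 (DJ526, all SD, n = 3, adjusted p = 0.255 from limma). Its differences from Ctrl of 0.81, 0.57 and 0.83 became 0.77, 0.65 and 0.47 when slide was added as a block. Lrp6, a co-receptor for Wnt, had 2.55 ± 0.17 (Ctrl), 2.32 ± 0.12 (RS), 2.36 ± 0.08 (DJ) and 2.64 ± 0.11 (DJ526, adjusted p = 0.552 from limma), and Fzd5, a Wnt receptor, differed from Ctrl by 0.43 at most.

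Of 14 genes for beta-catenin transduction and the destruction complex, 0 passed the adjusted test in limma and 1 had an unadjusted p under 0.05 in the F test (7.7% of all probes). This was Dvl3, a Dishevelled protein that passes the signal on from the receptor, with differences from Ctrl of 0.29 (RS), 0.44 (DJ) and 0.20 (DJ526, adjusted p of the F test 0.424 from limma). In the same order Apc, a scaffold of the destruction complex, differed by 0.34, 0.41 and 0.16, and Gsk3b, its kinase, by -0.22, -0.03 and 0.05, which became 0.08, 0.19 and 0.30 with the slide block. Of 11 other targets and feedback regulators, 0 passed at either threshold, and no array had a signal well above background for Apcdd1 or Dkk1. Among these, Wif1, a secreted inhibitor of Wnt, had differences of -0.21, -0.83 and -1.21, Znrf3, a ligase that removes Wnt receptors, -0.05, 0.13 and 0.36, and Tcf7, a TCF/LEF factor, 0.24, 0.38 and 0.33. The F test of these 3 had adjusted p-values of 0.811 to 0.862 in limma. The slide block changed the differences, in the same order, to -1.99, -1.59 and -4.26 for Wif1. It changed them to 0.56, 0.54 and 0.99 for Znrf3 and to 1.19, 0.93 and 1.498 for Tcf7. The size of these differences was therefore not settled, nor was the direction for Znrf3 in RS. Wif1 was also dim and variable, with means from -4.74 (Ctrl) to -5.96 (DJ526) and SDs within groups of 0.67 to 1.12 (n = 3).

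Of 14 other pericentral hepatocyte genes, 13 had a named probe and Cyp2a5 did not, and none passed the adjusted test in limma. Means above that of Ctrl were found for 12 of the 13 genes with RS, 12 with DJ and 11 with DJ526, comparisons that share the Ctrl mice, and the medians were 0.16, 0.22 and 0.09 where those of all probes were 0.03, -0.02 and 0.02. When slide was added as a block it was 9, 11 and 8 of 13. An unadjusted p under 0.05 in the F test (7.7% of all probes) was found for Cyp1a2, a cytochrome that oxidises planar aromatic compounds, and Cyp7a1, the first enzyme of bile acid synthesis. Cyp1a2 had levels of 1.35 ± 0.30 (Ctrl), 2.14 ± 0.36 (RS), 1.79 ± 0.36 (DJ) and 2.12 ± 0.24 (DJ526, all SD, n = 3, adjusted p = 0.515 from limma). Cyp7a1 had 1.52 ± 0.49, 1.25 ± 0.35, 0.33 ± 0.998 and 0.53 ± 0.19 (adjusted p = 0.631 from limma), and its difference of -0.995 in DJ526 was 0.05 with the slide block. Ahr, the receptor that switches on Cyp1a2, differed from Ctrl by 0.34, 0.40 and 0.28. With the slide block the Ahr differences were 0.12 (RS), 0.30 (DJ) and -0.10 (DJ526).

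The 14 periportal hepatocyte genes, from the other end of the lobule, had median differences from Ctrl of 0.01 (RS), 0.01 (DJ) and 0.16 (DJ526), and none passed the adjusted test in limma. With the slide block these medians were -0.26, -0.09 and -0.33, and the number of genes higher in DJ526 fell from 10 to 4 of 14. Otc and Cps1, the first enzymes of the urea cycle, differed in DJ526 by 0.32 and 0.38, and Asl, a later one, by -0.08, and with the slide as a block by 0.01, -0.69 and -0.36. Otc had an unadjusted p of 0.0433 in the F test of limma, where 7.7% of all probes were under 0.05. The mean level of the 7 pericentral genes minus that of the 14 periportal genes in the same mouse was -3.30 ± 0.16 (Ctrl), -3.39 ± 0.17 (RS), -3.34 ± 0.22 (DJ) and -3.54 ± 0.25 (DJ526, all SD, n = 3). The value serves only to compare mice, and its groups overlapped. It was not adjusted for the slide, which changed the direction of the periportal median in DJ526 as given above. Of 16 genes for glutamine, glutamate and proline handling, 15 had a named probe, Pycr1 had none, and on no array was the Rhag signal well above background. None of the 15 passed the adjusted test in limma. The differences from Ctrl in RS, DJ and DJ526 were 0.24, 0.09 and 0.08 for Aldh4a1, which breaks proline down, and -0.08, 0.33 and 0.37 for Slc38a2, a glutamine transporter. Of the 86 genes of these 6 lists, the slide block turned the direction of the difference from Ctrl in 28 for RS, 26 for DJ and 39 for DJ526.

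**Figure D5:**
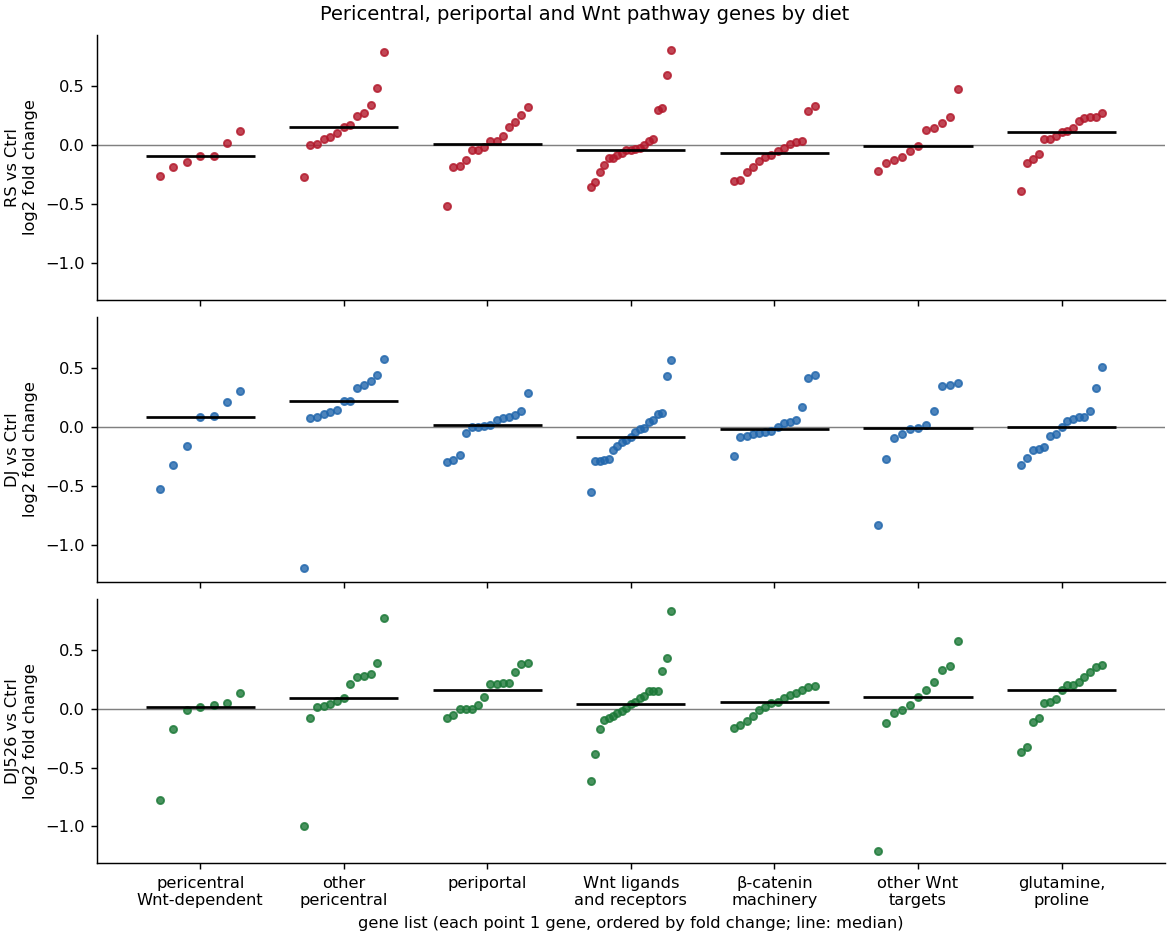
Log2 fold changes against Ctrl (vertical axis) of the genes of 7 lists in RS, DJ and DJ526, each point 1 gene by its brightest probe, with lines at the median of the list. The medians lie between -0.09 and 0.22, and Cyp7a1 (-1.19 in DJ), Wif1 (-1.21 in DJ526), Wnt11 (0.83 in DJ526) and Rhbg (-0.78 in DJ526) are among the points farthest from 0, none of which passed the adjusted test. All values shown are without the slide block. With it, the values of these named points were -0.0999, -4.26, 0.47 and -1.01 in the same order.

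The arrays carried liver RNA by their markers. The summed signal of 8 hepatocyte markers was 1548 to 1898 times the 75th percentile of the array, and that of 6 markers of acinar pancreas and adipocytes was 0.21 to 0.41 times. No gene of the 7 marker lists passed the adjusted test in limma. Alb, the main plasma protein made by hepatocytes, was 9.21 ± 0.05 in Ctrl and 9.03 ± 0.02 in DJ526, and Fgb, a fibrinogen chain, 8.66 ± 0.06 and 8.40 ± 0.12 (F test adjusted p = 0.461 and 0.586 from limma). The summed signal of 9 liver endothelial markers was 43.7 to 49.7 in Ctrl and 46.2 to 49.9 in DJ526, and that of 6 Kupffer cell markers 58.1 to 103 and 49.99 to 75.1. Not every marker of the Kupffer cell list had a named probe. All 6 that had one had a lower mean than in Ctrl in RS (median difference -0.30) and in DJ (-0.35), and 5 of 6 in DJ526 (-0.18). These comparisons share the Ctrl mice. For 7 stellate cell markers the summed signal was 66.4 to 77.9 and 73.0 to 78.5, and for 6 cholangiocyte markers 1.48 to 2.97 and 1.35 to 1.97. All 6 lymphocyte markers had a higher mean in DJ526 than in Ctrl (median 0.90), with none past the adjusted test and a summed signal of 5.18 to 6.94 against 4.11 to 4.87, 4.44 to 5.42 in RS and 4.48 to 8.07 in DJ, and the part of these lists in the values of the 7 genes was not tested. The smallest F test p among them was that of Nkg7, a gene of cytotoxic lymphocytes, with levels of 0.97 ± 0.11 in Ctrl and 1.32 ± 0.05 in DJ526 (SD, n = 3 each, adjusted p = 0.352 from limma).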

How the data were processed

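Liver RNA of 12 mice was measured on 12 one-colour arrays (Agilent Mouse Gene Expression 4x44K v2). The authors deposited the spot intensity values of the scanner software (Feature Extraction 11.5.1.1), on a linear scale, with a processed signal after background subtraction, and a globally normalized intensity table, in which 99.9% of the probes of each array equal the processed signal times 1 factor (0.959 to 1.08, tolerance 0.0001). Values used here are log2 ratios, made from these deposited intensities, of a probe's mean processed signal (spots with outlier flags left out) to the array's 75th percentile. The groups come from the labels, and p-values measure the spread between these mice. They do not measure the spread between cages, since cages were assigned to the groups and the cage of each mouse was not used here. The linear model of limma 3.58.1 (R 4.3.3) had a mean for each diet and a variance prior that follows the mean signal (residual degrees of freedom 8), with Benjamini-Hochberg adjustment over 39429 probes at 0.05. A total of 27508 probes were named by RefSeq accession, 11921 were not, and 68 lacked a value on some array. Permutation tests over mice used scipy 1.17.1 (Python 3.11.15, numpy 2.4.6, pandas 2.3.3, matplotlib 3.10.9).

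The genes and lists were chosen with earlier results of these data known. All probes of the 7 genes are given. From each other list, up to 3 genes with the smallest F test p among probes well above background in a group are named, and the similar genes are the 3 with the highest r. The fit was tested on simulated data. Alternatives were the deposited table, quantile normalization, normexp on the median pixel (no mean pixel is in the files used here; offset 50), a filter on dim probes, no variance trend, the slide or the replicate number as a block, only the groups compared, the methods' t-test, an exchange of DJ and RS, the mean over probes and leaving out each mouse. A gene that the naming rule selects is not reported here. Blood, behaviour and qRT-PCR data were not used here.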

Additional observations from a re-analysis of the deposited data

How the results depend on the processing

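No member probe was called under any of the alternatives run, and no adjusted p of the 31 member values followed here passed 0.05. Of 314 such values under other processing, 284 kept their direction, and of 372 with 1 mouse left out, 346 did. Many of these values could not turn. The filter on dim probes, no variance trend, the replicate block, only the groups compared and the methods' t-test leave the log2 difference of a member probe unchanged. So does leaving out a mouse of a group outside the comparison. Of the other processing, the slide block turned the most values, which are listed below. Rhbg in DJ526 kept its direction against Ctrl, DJ and RS under every alternative run. Leaving out a mouse or exchanging DJ and RS could not turn it, since all 3 DJ526 mice lay below all 9 others. With the slide as a block the difference from RS was -0.24, where the main fit gave -0.68. Counts over all probes moved more than the count of member probes. When slide was added as a block, limma called 1 (RS against Ctrl), 8 (DJ against Ctrl), 0 (DJ526 against Ctrl), 40 (DJ526 against RS), 3 (rice), 17 (effects of resveratrol) and 11 probes (F test). Quantile normalization gave 9 (DJ526 against Ctrl), 27 (against DJ) and 5 (F test), normexp 0, 1, 1 (against RS) and 1 (F test), the filter on dim probes 4, 14 and 8 for the 3 comparisons of DJ526, and no variance trend 0, 11, 1 and, in the F test, 0. With only the groups compared it was 0 in those 3, and with the methods' t-test 0, 1 and 0. The replicate numbers did not pair the mice (r of deviations with the same number -0.35 to 0.41, with another number -0.42 to 0.44), and the replicate block left 0 calls in the comparisons of DJ526 and in the F test. Leaving out a mouse gave 0 to 4 calls for RS and 0 to 1 for DJ against Ctrl, 0 to 173 for DJ526 against Ctrl, 0 to 107 against DJ and 0 to 28 against RS, the highest 3 without RS replicate 3. It gave 0 to 19 for the effects of resveratrol (highest without DJ replicate 1) and 0 to 51 in the F test (highest without RS replicate 3). The causes were not tested.

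These log2 fold changes of the 7 genes turned their direction. With the slide as a block, against Ctrl, Glul gave -0.18 (DJ), Oat -0.74 (RS), -0.33 (DJ) and -0.996 (DJ526), Rhbg -0.38 (DJ), Slc1a2 0.13 (RS) and 0.065 (DJ), Axin2 0.86 (RS), 0.37 (DJ) and 0.75 (DJ526), and Tbx3 0.76 (RS) and 0.22 (DJ), and the effect of resveratrol on Rhbg on rice minus that on starch was 0.14. With DJ and RS exchanged, Glul gave 0.082 (RS), -0.19 (DJ) and 0.017 (DJ526 against DJ), Oat 0.0079 (DJ526 against DJ), and Rhbg 0.21 (RS) and -0.093 (DJ). With normexp, Glul gave -0.028 (DJ), Slc1a2 -0.027 (DJ526), Axin2 0.10 (RS) and 0.11 (DJ526), and Tbx3 -0.13 (DJ526). With the deposited table, Oat gave 0.0035 (DJ526 against DJ) and Axin2 0.022 (DJ526). The mean over probes gave 0.077 for Slc1a2 (DJ) and 0.20 (RS), 0.012 (DJ) and 0.39 (DJ526) for Axin2. With 1 mouse left out, the ranges that include both directions were, against Ctrl, for Glul -0.086 to 0.22 (DJ), for Oat -0.11 to 0.15 (RS), -0.040 to 0.30 (DJ) and -0.075 to 0.12 (DJ526), for Rhbg -0.27 to 0.13 (RS), for Slc1a2 -0.27 to 0.032 (RS) and -0.29 to 0.014 (DJ), for Axin2 -0.24 to 0.11 (RS), -0.67 to 0.19 (DJ) and -0.20 to 0.13 (DJ526), for Lgr5 -0.029 to 0.26 (RS) and -0.11 to 0.27 (DJ526) and for Tbx3 -0.17 to 0.13 (DJ526). Against DJ they were -0.27 to 0.071 for Oat and -0.21 to 0.66 for Axin2 in DJ526.

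The number of arrays limits the precision, and the dimmer Axin2 probe lay close to the lowest signals above background.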
